A study of Mus musculus with 6 samples.

Results

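The untreated BBC line stood apart from the other 2 lines of the study by the genes of the pre-B cell receptor, which were abundant in it and at or near 0 in ZNF and BCRF8C. The comparison used 3 of the 6 RNA sequencing libraries, those of cells kept for 24 h in DMSO, the solvent of the drug. For each gene entry, the level in BBC on the log2(FPKM + 1) scale was set against the higher of the other lines, to find entries high in BBC, or against the lower one, to find entries low in BBC. FPKM are fragments scaled by gene length and by the mapped fragments of the library. Of 17169 entries, 12074 were used. These reached at least 1 FPKM in 1 of the 3 DMSO libraries and were not at 0 in both libraries of any line. Entries at 0 in both libraries of a line, which may be missing estimates, are described apart.

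All 3 are SCLL lines, grown out of bone marrow that came from diseased Balb/c mice. SCLL, stem cell leukemia/lymphoma, is caused by fusion proteins that contain the kinase part of the fibroblast growth factor receptor FGFR1. In the growth protocol the cells are called BBC2, ZNF112 and BCRF8C. The study compared their transcripts with and without BGJ398, an inhibitor of FGFR kinases. The other 3 libraries are of the same lines after 24 h in BGJ398, at doses that may differ between lines. Every group is 1 library of 1 line, so no difference between lines has a replicate check, no p-value or SD is given, and the state of 1 culture cannot be told apart from a property of its line. Genotype beyond the strain, the age of the mice and the fusion partner of FGFR1 in each line were not stated in the labels.

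A developing B cell first rearranges its heavy chain gene and tests the product in the pre-B cell receptor. In this receptor the heavy chain, encoded with the constant region Ighm, pairs with a surrogate light chain. That chain is made of Vpreb1 or Vpreb2 with Igll1, and Cd79a and Cd79b carry the signal into the cell. Later the surrogate light chain is replaced by a rearranged kappa or lambda chain. The transcription factors EBF1 and PAX5 set up and maintain this lineage, and several genes of the receptor are known targets of EBF1 and of E-box binding E2A proteins.

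The upstream sequences of the receptor genes are shown because all of these genes were abundant in BBC and at or near 0 in the other lines. The RefSeq start sites used here covered 5 of the 7 genes, without Cd79b and Ighm. The 250 bases before each start are printed 5′ to 3′ on the strand of the gene, in the build GRCm38.p6. Capitals mark matches to CCCNNGGG, the inverted repeat bound by EBF factors, and to CAGNTG, a form of the E-box CANNTG. Both were searched on both strands, and other E-box forms were left in lower case. The windows are chr16:16869256-16869505 (minus strand) for Vpreb1, chr16:17980315-17980564 (plus) for Vpreb2, chr10:75948050-75948299 (plus) for Vpreb3, chr16:16863986-16864235 (minus) for Igll1 and chr7:24897247-24897496 (plus) for Cd79a.
Vpreb1: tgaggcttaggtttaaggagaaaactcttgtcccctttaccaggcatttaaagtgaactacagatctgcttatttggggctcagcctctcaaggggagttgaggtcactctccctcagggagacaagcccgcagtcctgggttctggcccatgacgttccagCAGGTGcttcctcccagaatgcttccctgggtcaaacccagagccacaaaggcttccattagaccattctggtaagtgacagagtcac
Vpreb2: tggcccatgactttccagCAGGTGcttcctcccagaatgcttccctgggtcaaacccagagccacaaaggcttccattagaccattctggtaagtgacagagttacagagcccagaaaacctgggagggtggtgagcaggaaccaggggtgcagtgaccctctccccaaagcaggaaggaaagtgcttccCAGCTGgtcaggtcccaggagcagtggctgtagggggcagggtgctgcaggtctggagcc
Vpreb3: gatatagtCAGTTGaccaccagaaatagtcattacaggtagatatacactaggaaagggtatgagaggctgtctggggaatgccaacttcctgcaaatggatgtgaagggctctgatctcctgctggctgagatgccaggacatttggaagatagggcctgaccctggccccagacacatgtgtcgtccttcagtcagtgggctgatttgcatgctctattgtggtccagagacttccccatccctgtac
Igll1: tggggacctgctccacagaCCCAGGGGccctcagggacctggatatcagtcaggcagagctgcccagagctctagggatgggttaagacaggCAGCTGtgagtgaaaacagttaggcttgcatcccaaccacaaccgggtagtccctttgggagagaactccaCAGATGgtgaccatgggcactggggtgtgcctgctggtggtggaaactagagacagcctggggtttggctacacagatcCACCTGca
Cd79a: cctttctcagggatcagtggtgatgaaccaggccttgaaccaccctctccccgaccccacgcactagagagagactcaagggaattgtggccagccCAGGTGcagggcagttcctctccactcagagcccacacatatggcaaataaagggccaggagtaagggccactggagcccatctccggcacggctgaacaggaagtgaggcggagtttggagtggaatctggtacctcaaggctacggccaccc

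CAGNTG was present in 5 of these 5 windows, with 3 matches in Igll1, 2 in Vpreb2 and 1 in each of the others, and in 44.8% of 32851 RefSeq windows of the same length. CCCNNGGG was present in 1 of the 5, that of Igll1, and in 11.8% of all windows. No capitalised match overlapped another. The ETS motif GGAAGT, left in lower case, had 2 matches in Vpreb3 and 1 in Cd79a and was present in 19.7% of all windows. The windows of Vpreb1 and Vpreb2, which encode near-identical proteins, shared an identical run of 91 bases, and 104 of the 106 bases over which they align without a gap were the same (98.1%). Fragments of such copies can be divided between them, so the split between Vpreb1 and Vpreb2 is uncertain. These matches describe the letters only, and binding was not measured.

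All 7 genes of the pre-B receptor list had an entry. Their levels ran from 134 to 1301 FPKM in BBC and were at most 5.29 FPKM in the other lines. The members were chosen with earlier results of these data known, so these values describe the list and are no test of it. Their levels summed to 3651 FPKM in BBC, 0.501 in ZNF and 6.42 in BCRF8C. These are bulk libraries, in which more cells of a type and more RNA per cell cannot be told apart. Only Cd79a and Ighm were measured in all 3 lines under the rule. The other 5 were at 0 in both libraries of at least 1 other line, so that the size of their difference has no fold.

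Vpreb3 (chromosome 10, 75405802 to 75412402, NCBIM37, the build of the deposited loci), a relative of Vpreb1 and Vpreb2, was at 1088 FPKM in BBC, listed at 0 in ZNF and at 0.976 in BCRF8C. Igll1 (chromosome 16, 16860764 to 16864078), the lambda5 part of the surrogate light chain, was at 546 FPKM in BBC and listed at 0 in both others. It lay 4416 bases from Vpreb1 on the same chromosome. Vpreb1 was at 171 FPKM and Vpreb2 at 134 FPKM in BBC, and both were listed at 0 in ZNF and BCRF8C. As listed, these genes were abundant in BBC alone. They were not counted as high under the rule, because their zeros may be missing estimates.

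The signalling chains showed the same order. Cd79b (chromosome 11, 106172655 to 106176076) was at 232 FPKM in BBC and listed at 0 in the others. Cd79a (chromosome 7, 25682400 to 25687216) was at 179 FPKM in BBC, 0.178 in ZNF and 0.148 in BCRF8C, which put BBC 7.26 above the higher other line on the log2(FPKM + 1) scale. Ighm (chromosome 12, 114659078 to 114660941), the constant region of the mu heavy chain, was at 1301 FPKM in BBC, 0.322 in ZNF and 5.29 in BCRF8C, a difference of 7.69 to the higher line. The markers Vpreb1, Vpreb3, Igll1 and Cd79b were thus abundant in the BBC library. Their levels in the other lines rest mostly on values listed at 0, which may be missing estimates, while Cd79a and Ighm were listed above 0 in all 3 lines.

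**Figure D1:**
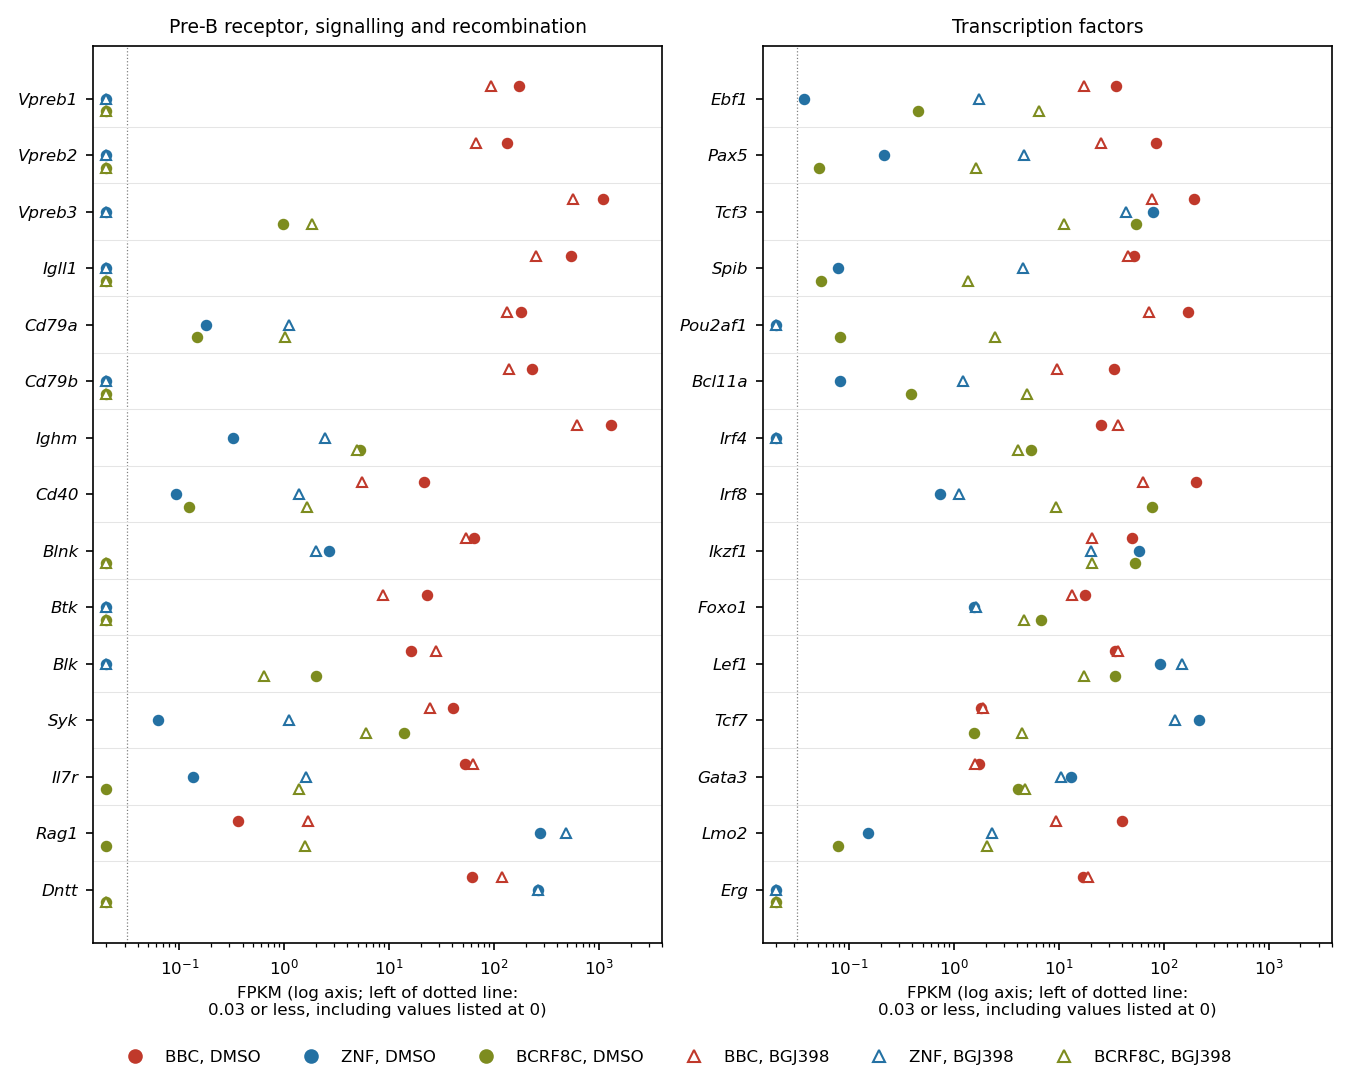
Levels of 30 B and T lineage genes in each of the 6 libraries, in FPKM on a log axis; filled circles are DMSO and open triangles BGJ398, red is BBC, blue ZNF and green BCRF8C, and values of 0.03 or less, including those listed at 0, stand left of the dotted line. The red points of Vpreb1, Vpreb2, Vpreb3, Igll1, Cd79a, Cd79b and Ighm lie to the right of all blue and green ones, while for Rag1 and Tcf7 the blue points are farthest to the right.

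Entries of the light chain loci were also abundant in BBC. Igkc, the constant region of the kappa chain, was at 2234 FPKM in BBC, 0.001 in ZNF and 0.295 in BCRF8C. Of 50 kappa variable segments with an entry, 1 held most of the signal. Igkv3-5 was at 2166 FPKM in BBC, which was 92.4% of the 2346 FPKM summed over those segments, and the next highest segment was at 44.4 FPKM. Igkv3-5 was listed at 0 in all libraries of ZNF and BCRF8C. The lambda constant regions Iglc2 and Iglc3 were at 377 and 231 FPKM in BBC and listed at 0 in the others. The gamma constant region entry Ighg was at 202 FPKM in BBC and at 0 in the others. The 42 heavy chain variable segments with an entry reached at most 4.25 FPKM in BBC, and segments without an entry could not be seen. Segments of these families resemble each other, so the assignment of fragments among them is uncertain, and these classes were chosen after their values were seen.

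The T cell receptor constant regions were not highest in BBC. Trbc2, a beta chain constant region, was at 0.887 FPKM in BBC, 365 in ZNF and listed at 0 in BCRF8C. Tcrg-C, a gamma chain constant region, was at 32.0 FPKM in BBC, 215 in ZNF and 97.4 in BCRF8C. Trac, the alpha chain constant region, was at 1.79 FPKM in BBC, 16.2 in ZNF and 3.56 in BCRF8C. ZNF was thus the highest of the 3 lines for these 3 entries. The 27 alpha and delta variable segments with an entry summed to 126 FPKM in BBC, 13.8 in ZNF and 5.57 in BCRF8C, where 16 of them were at 0 in both ZNF libraries and 14 in both BCRF8C libraries and so counted as 0.

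Across all entries used, the DMSO libraries had similar medians, 12.2 FPKM in BBC, 11.2 in ZNF and 12.3 in BCRF8C. The median of BBC minus the mean of the other lines was 0.01, so levels were compared without rescaling. Ranks of BBC correlated across genes at a Spearman rho of 0.840 with ZNF and 0.824 with BCRF8C, and those of ZNF and BCRF8C at 0.817. Genes are not independent replicates, and these values describe 3 libraries. Depth is unknown. Entries listed in BBC all reached 1.02 FPKM in at least 1 BBC library apart from 14 at 0 in both, whereas ZNF was at 0 in both libraries for 3185 entries and BCRF8C for 1640. Apart from those 14, no entry was below 1.02 FPKM in both BBC libraries, which limits how many genes could be found low in BBC. Zeros also met a widely expressed gene, since Msn, outside the naming rule, was at 154 FPKM in BBC, 55.7 in ZNF and 0 in BCRF8C.

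BBC was at least 4-fold above both other lines (a log2 difference of at least 2) for 260 of 12074 entries (2.15%) and at least 4-fold below both for 61 (0.505%). At a difference of at least 1, the counts were 1015 (8.41%) and 264 (2.19%), and at one of at least 3 they were 79 (0.654%) and 22 (0.182%). Of the 260 high entries, 176 were annotated as protein coding, 194 had at least 10 FPKM in BBC, and 103 were under 1 FPKM in both others. Of the 61 low entries, 51 were protein coding. In 31 of the 61 the BBC value lay under 1.02 FPKM and in 6 it was 0. At the edge of the rule, Gng2 was just inside with a difference of 2.004 (21.7 FPKM in BBC, 0.703 in ZNF, 4.66 in BCRF8C). Ifngr1, a chain of the interferon gamma receptor, was just inside the low side at -2.001 (49.9 FPKM in BBC, 315 in ZNF, 203 in BCRF8C), and the snoRNA Snord33 just outside at -1.99.

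**Figure D2:**
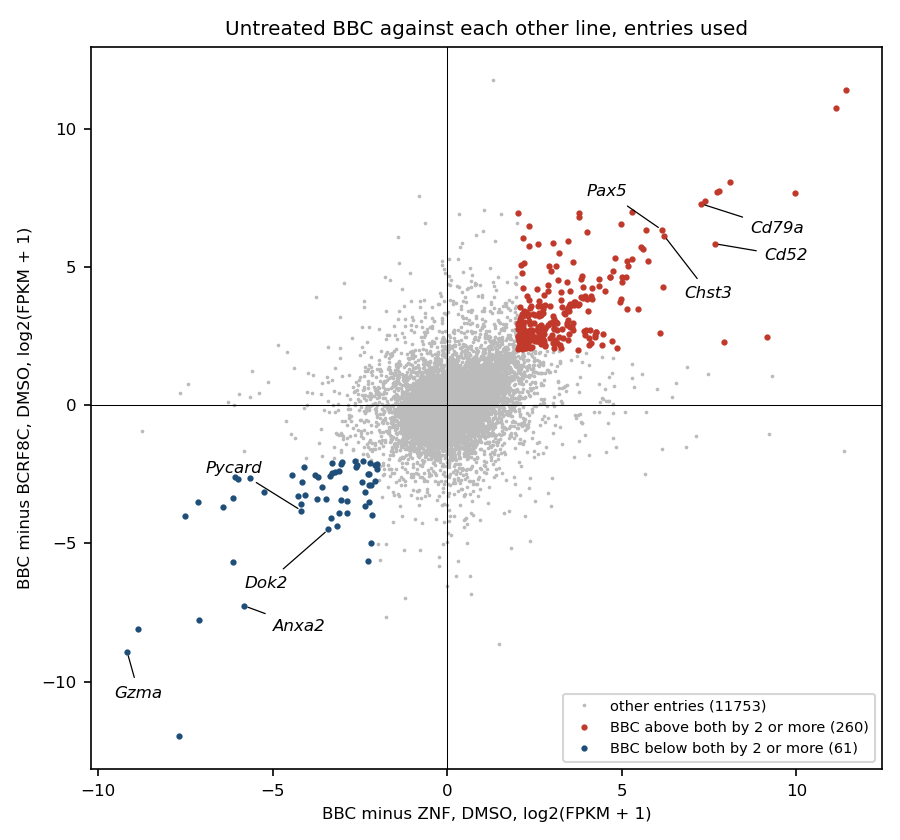
Difference of BBC to ZNF (horizontal axis) and to BCRF8C (vertical axis) in DMSO, both on the log2(FPKM + 1) scale, for the 12074 entries used, each a point. Red points are the 260 entries at least 2 above both lines and blue points the 61 at least 2 below both; the 4 named genes with the largest difference on each side are labelled, and red points outnumber blue ones.

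Both axes share the BBC library. The farthest red points on this plot included entries outside the naming rule. Igkc was 10.75 above the higher other line. The predicted gene Gm10281 was at 2741 FPKM in BBC and at 0.001 in both others, with a difference of 11.42, and it was -0.19 with BGJ398. In 26 of the 260 high entries both others were at 0.001 FPKM, the lowest value above 0 in the table.

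Among the 15 genes named for the size of their difference, which leave out antigen receptor genes such as Ighm, Cd79a came first, and the next were of mixed function. Chst3, a sulfotransferase of chondroitin chains, was at 77.9 FPKM in BBC, 0.0699 in ZNF and 0.116 in BCRF8C, a difference of 6.14. Cd52, a short lymphocyte surface glycoprotein, was at 699 FPKM in BBC, 2.48 in ZNF and 11.2 in BCRF8C, a difference of 5.85. Gbp1, an interferon-induced GTPase, was at 100.3 FPKM in BBC, 0.979 in ZNF and 0.232 in BCRF8C (5.68).

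The receptor of the B cell growth factor interleukin-7 belonged to this group. Its alpha chain gene Il7r (chromosome 15, 9435916 to 9459631) was at 52.4 FPKM in BBC, 0.135 in ZNF and 0.0160 in BCRF8C, a difference of 5.56. Tifa, an adaptor of TRAF signalling, was at 61.5 FPKM in BBC, 0.175 in ZNF and 0.678 in BCRF8C (5.22). H2-Ob, a chain of the H2-O protein that tempers peptide loading of MHC class II, was at 36.0 FPKM in BBC, 0.0330 in ZNF and 0.124 in BCRF8C (5.04). In each of these genes the others were under 1 FPKM, as in 11 of the 15 named high genes.

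The rest of the 15 were Pax5, Spib, Lmo2 and Bcl11a, described below, and 4 more. Xkrx, of the XK family of membrane proteins, was at 135 FPKM in BBC, 2.44 in ZNF and 0.0715 in BCRF8C (5.30). Mid1, a microtubule-associated ubiquitin ligase, was at 226 FPKM in BBC, 6.27 in ZNF and 1.43 in BCRF8C (4.97). Both lie on the X chromosome. Lmo7 was at 145 FPKM in BBC against at most 4.23 in the others (4.81), and Zc3h12d, of a family of RNA-degrading zinc finger proteins, at 29.2 FPKM against at most 0.124 (4.75).

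Of the 16 listed B lineage transcription factors, 5 of the 14 used were high in BBC and 0 were low, against 2.15% and 0.505% of all entries. The median difference of BBC to the mean of the others was 2.09 over these 14 and 0.01 over all entries. The members were chosen with earlier results of these data known, so these counts describe the list and are no test of it. Pax5 (chromosome 4, 44544017 to 44724318), which commits cells to the B lineage, was at 84.7 FPKM in BBC, 0.215 in ZNF and 0.0518 in BCRF8C, a difference of 6.14. Ebf1, which acts before Pax5, was at 35.0 FPKM in BBC, 0.0369 in ZNF and 0.454 in BCRF8C, a difference of 4.63. Spib, an ETS family factor of B cells, was at 51.6 FPKM in BBC, 0.0784 in ZNF and 0.0542 in BCRF8C (5.61). BBC alone was above 1 FPKM for these 3 factors.

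Bcl11a, a zinc finger factor needed for B cell development, was at 33.5 FPKM in BBC, 0.0824 in ZNF and 0.390 in BCRF8C (4.63). Klf2, a factor of lymphocyte quiescence and trafficking, was at 5.37 FPKM in BBC, 0.366 in ZNF and 0.0475 in BCRF8C (2.22). Pou2af1, the B cell coactivator OBF1, was at 171 FPKM in BBC, listed at 0 in ZNF and at 0.0817 in BCRF8C. Irf4 was likewise listed at 0 in ZNF, with 25.3 FPKM in BBC and 5.36 in BCRF8C.

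The other factors of this list that were used were not high under the rule, though several were highest in BBC. Relb, Bach2, Foxo1 and Ikzf3 were 1.70, 1.37, 1.28 and 0.95 above the higher other line. Tcf3, which encodes the E2A proteins, was at 192 FPKM in BBC, 79.2 in ZNF and 54.2 in BCRF8C, a difference of 1.27. Irf8 was at 203 FPKM in BBC, 0.734 in ZNF and 77.4 in BCRF8C. BBC was thus 1.38 above BCRF8C. Ikzf1, the lymphoid factor Ikaros, was at 49.2 FPKM in BBC, 57.2 in ZNF and 52.6 in BCRF8C, a difference of -0.21 to the higher line. Lef1 and Sox4 were highest in ZNF, at 90.9 and 113 FPKM, against 34.3 and 41.1 in BBC.

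Of 24 listed genes of the B cell surface and its signalling, 22 had an entry and 11 of those were at 0 in both libraries of another line. Of the 11 used, 2 were high and 0 low, against 2.15% and 0.505% of all entries, and their median difference was 2.54, against 0.01 over all entries. The high members were Cd40, a costimulatory receptor, at 21.4 FPKM in BBC, 0.0938 in ZNF and 0.124 in BCRF8C (4.31), and Bst1, a surface enzyme of early B cells, at 93.8 FPKM in BBC, 17.8 in ZNF and 0.0647 in BCRF8C (2.33). Ly6d, which marks progenitors bound for the B lineage, was at 936 FPKM in BBC, listed at 0 in ZNF and at 0.001 in BCRF8C.

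The kinases and adaptors below the receptor were less uniform. Blnk, the adaptor that links Syk to downstream enzymes, was at 63.9 FPKM in BBC, 2.66 in ZNF and 0 in BCRF8C. Btk, a kinase of the same step, was at 22.9 FPKM in BBC and listed at 0 in both others. Syk was at 40.8 FPKM in BBC, 0.0621 in ZNF and 13.9 in BCRF8C, with BBC 1.49 above the higher line. Lyn, with 23.2 FPKM in BBC, 0.0637 in ZNF and 15.2 in BCRF8C, and Plcg2, with 71.8, 2.56 and 41.3 FPKM in the same order, separated BBC from ZNF more than from BCRF8C. Ms4a1, which encodes the mature B cell marker CD20, was at 1.66 FPKM in BBC, listed at 0 in ZNF and at 0.001 in BCRF8C. Cr2, another marker of mature cells, was at 1.28, 0 and 0.181 FPKM in that order. Other surface genes were higher in BBC and also highest there. Cd22 was at 8.79, 0 and 0.0104 FPKM in the same order, Cd38 at 35.9, 0 and 0.236, Cd72 at 27.1, 2.93 and 6.24, and Cd37 at 72.8, 16.8 and 27.9. Spn (36.9, 38.8 and 52.7 FPKM) and Rhoh (26.5, 28.5 and 11.2 FPKM) were highest in another line.

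Of 8 genes of V(D)J recombination used, 0 were high and 0 low in BBC, which at 2.15% and 0.505% of all entries says little about so short a list. Rag1, a subunit of the recombinase, was at 0.360 FPKM in BBC, 272 in ZNF and 0.001 in BCRF8C. Dntt, which adds untemplated bases at the joints, was at 61.1 FPKM in BBC, 264 in ZNF and 0 in BCRF8C. ZNF had the highest level of both, and BBC shared with BCRF8C a Rag1 level under 1 FPKM.

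**Figure D3:**
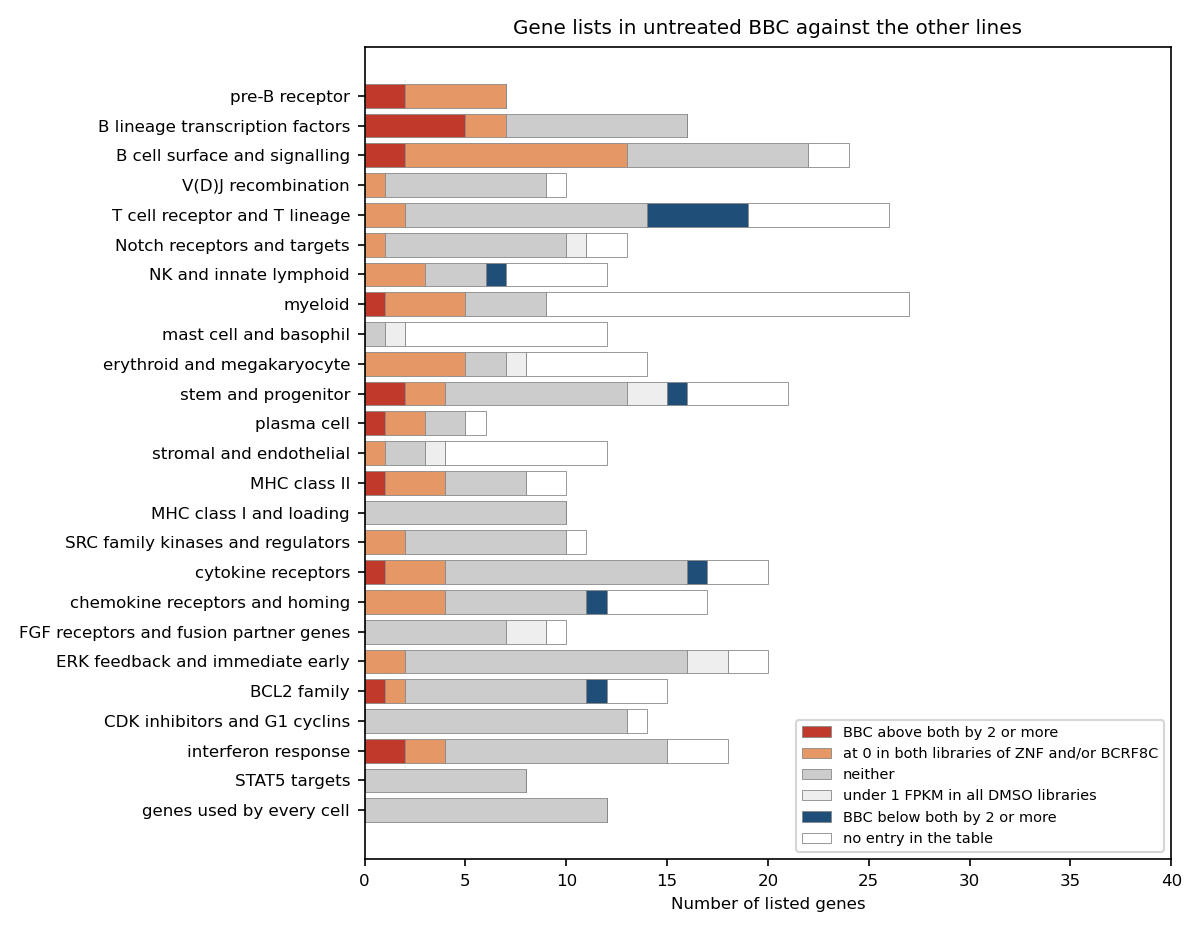
Number of genes in each of the 25 gene lists by their state in the DMSO libraries: at least 2 above both other lines on the log2(FPKM + 1) scale (red), at 0 in both libraries of ZNF, BCRF8C or both (orange), neither (grey), under 1 FPKM in all DMSO libraries (pale grey), at least 2 below both (blue), or without an entry (white). The pre-B receptor bar is the one made up of red and orange alone, and blue is longest in the T lineage list, with 5 genes.

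The largest differences on the low side were those of Gzma, Anxa2 and Pycard. Gzma (chromosome 13, 113884033 to 113891187), a serine protease of cytotoxic granules, was at 0.832 FPKM in BBC, 1055 in ZNF and 887 in BCRF8C, a difference of -8.92 to the lower line. Anxa2, which binds membranes in the presence of calcium, was at 0.748 FPKM in BBC, 97.8 in ZNF and 266 in BCRF8C (-5.82). Pycard, the inflammasome adaptor ASC, was at 0.440 FPKM in BBC, 25.0 in ZNF and 19.3 in BCRF8C (-3.82). In these 3 genes BBC was under 1 FPKM and both others above 10.

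Of 26 listed genes of the T cell receptor and T lineage, 19 had an entry. Of the 17 used, 5 were low in BBC and 0 high, against 0.505% and 2.15% of all entries, with a median difference of -1.64. With a pseudocount of 5 FPKM in place of 1, 0 were low. Sh2d1a, the adaptor SAP of SLAM receptors, was at 0.654 FPKM in BBC, 20.9 in ZNF and 16.4 in BCRF8C (-3.39). Cd247, the zeta chain of the T cell receptor complex, was at 0.349 FPKM in BBC, 93.2 in ZNF and 12.9 in BCRF8C (-3.37). Satb1, a chromatin organiser of thymocytes, was at 0.491 FPKM in BBC, 74.5 in ZNF and 8.32 in BCRF8C (-2.64). In each the order was ZNF, BCRF8C, BBC.

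Themis, a regulator of thymocyte selection, was at 0.837 FPKM in BBC, 123 in ZNF and 9.997 in BCRF8C (-2.58). The other T lineage genes separated ZNF from the rest or were spread over the lines. Cd3g was at 0.934 FPKM in BBC, 335 in ZNF and 0.136 in BCRF8C, and Tcf7 at 1.79, 217 and 1.56 FPKM in that order. Several T cell signalling genes were present in BBC, since Lat was at 145 FPKM there, with 386 in ZNF and 1.12 in BCRF8C, and Lck at 28.6 FPKM, with 161 and 3.12. Of these, Lat and Lck are adaptor and kinase of the T cell receptor.

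Genes of natural killer cells were mostly highest in BCRF8C. Of 12 listed, 7 had an entry, 4 were used, and 1, Gzma, was low in BBC, against 0.505% of all entries. Prf1, the pore protein perforin, was at 1.43 FPKM in BBC, 0 in ZNF and 489 in BCRF8C. Eomes, a factor of cytotoxic lymphocytes, was at 0.680 FPKM in BBC, 0.0684 in ZNF and 120 in BCRF8C. For Eomes, BBC and ZNF were both under 1 FPKM, which the rule against both lines does not count.

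The other named low genes concerned survival, adhesion and signalling. Bcl2, which blocks apoptosis, was at 3.14 FPKM in BBC, 79.2 in ZNF and 39.6 in BCRF8C (-3.29). Its relative Bcl2l2 was on the high side, at 4.24 FPKM in BBC, 0.0538 in ZNF and 0.0566 in BCRF8C (2.31). It no longer counted as high with a pseudocount of 5 FPKM, with a filter of 5 FPKM or after quantile normalization, and its difference was -0.82 with BGJ398. Mcl1, another relative, was at 160 FPKM in BBC, 65.9 in ZNF and 90.9 in BCRF8C (0.81). Of the 11 members of this family used, Bcl2l2 was the 1 high and Bcl2 the 1 low member, against 2.15% and 0.505% of all entries.

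Itgal, the alpha chain of the integrin LFA-1, was at 1.17 FPKM in BBC, 18.3 in ZNF and 44.0 in BCRF8C (-3.15). Gfi1, a transcriptional repressor of blood progenitors, was at 0.598 FPKM in BBC, 25.8 in ZNF and 14.1 in BCRF8C (-3.24). Its paralog Gfi1b had the opposite order, with 29.3 FPKM in BBC, 2.85 in ZNF and 0.02996 in BCRF8C (2.97). Dok2, an adaptor of tyrosine kinases, was at 2.82 FPKM in BBC, 39.5 in ZNF and 85.1 in BCRF8C (-3.41). The 6 of the 15 not yet described were the growth factor gene Pdgfa, the T cell adaptor gene Skap1, Podnl1, the interferon-induced Ifi202b, Abcb9, a peptide transporter of lysosomes, and Lass6, a ceramide synthase. Their differences lay between -3.38 and -2.88. In 8 of the 15 named low genes the BBC value was under 1.02 FPKM.

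Genes of blood progenitors stood on both sides, and 1 myeloid gene was high. Lmo2, an adaptor in progenitor transcription complexes, was at 39.7 FPKM in BBC, 0.150 in ZNF and 0.0778 in BCRF8C (5.14). Lyl1, one of its known partners, was at 34.7 FPKM in BBC, 0.233 in ZNF and 0 in BCRF8C. The ETS factor Erg was at 16.9 FPKM in BBC and listed at 0 in both others. Of 12 progenitor genes used, 2 were high (Lmo2 and Gfi1b) and 1 was low (Gfi1), against 2.15% and 0.505% of all entries. With BGJ398 0 were high and 0 low, and with a pseudocount of 5 FPKM 0 were low.

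Of 27 listed myeloid genes, 9 had an entry and 1 of the 5 used was high in BBC, against 2.15% of all entries. That gene was Spi1, the factor PU.1 shared by myeloid and B cells, listed under the older symbol Sfpi1 at 16.2 FPKM in BBC, 0.001 in ZNF and 0.120 in BCRF8C (3.94). Mpo, a defining granulocyte gene, was at 0.425 FPKM in BBC, listed at 0 in ZNF and at 0.0967 in BCRF8C. Other myeloid genes lay on both sides. Lyz2 was at 5.55 FPKM in BBC, listed at 0 in ZNF and at 0.001 in BCRF8C. Csf2ra was at 4.02 FPKM in BBC, 0.260 in ZNF and 2.43 in BCRF8C. Cebpb, at 7.73, 21.4 and 20.3 FPKM in that order, and Fcgr3, at 1.30, 0.545 and 44.7 FPKM, were highest in another line, as were Cebpa and Cd68. Of markers of other cell types, 2 of 12 mast cell and basophil genes and 4 of 12 stromal and endothelial genes had an entry. Summed over those with an entry, the mast cell list came to 1.30 FPKM in BBC, 1.27 in ZNF and 1.11 in BCRF8C, and the stromal list to 15.1, 26.0 and 78.6 FPKM in that order. Of the stromal sums, Pecam1, which leukocytes also express, gave 11.9, 25.6 and 77.4 FPKM. In the erythroid list, which summed to 472 FPKM in BBC, Car2 alone gave 434 FPKM, with 0 in ZNF and 57.1 in BCRF8C, and Hbb-b1 was at 20.5 FPKM in BBC and 0 in both others. Whether other cells contributed RNA to the libraries was not tested.

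The lists of cytokine receptors, antigen presentation and the interferon response were short. Their counts stand beside 2.15% high and 0.505% low of all entries. Of 14 cytokine receptor genes used, Il7r was high and Ifngr1 low, the latter not with a pseudocount of 5 FPKM or with BGJ398. Csf2rb, the shared beta chain of the receptors for interleukin-3 and GM-CSF, was at 13.7 FPKM in BBC and listed at 0 in both others. Of 5 MHC class II genes used, H2-Ob was high, whereas H2-Ab1, a chain of the classical molecule, was at 37.9 FPKM in BBC, 8.33 in ZNF and 31.9 in BCRF8C. Of 10 MHC class I genes used, 0 were high and 0 low. Of 13 interferon response genes used, the GTPase genes Iigp1 (171 FPKM in BBC, 11.02 in ZNF, 6.25 in BCRF8C, difference 3.84) and Gbp2 (72.1, 2.91 and 11.6 FPKM, difference 2.53) were high. With BGJ398 their differences were -0.24 and -0.68.

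Several lists had 0 high and 0 low members, which at 2.15% and 0.505% of all entries says little about lists so short. These were Notch receptors and targets (9 used), SRC family kinases (8), FGF receptors and fusion partner genes (7), ERK feedback and immediate early genes (14), CDK inhibitors and G1 cyclins (13), STAT5 targets (8) and genes used by every cell (12). Among them, Fgfr1 was at 36.7 FPKM in BBC, 12.9 in ZNF and 0.510 in BCRF8C, a difference of 1.45 to the higher line. A value for Fgfr1 covers both the normal gene and any fusion that holds part of it. Actb, a housekeeping gene, was 0.07 above the higher other line, at 3137 FPKM in BBC, 1612 in ZNF and 2984 in BCRF8C.

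Entries at 0 in both libraries of another line numbered 3764, and 369 of them (9.8%) had at least 10 FPKM in BBC in DMSO. Of these 369, ZNF alone was at 0 in 133, BCRF8C alone in 108, and both lines in 128. The 10 named ones with the highest BBC level included 3 pre-B receptor genes (Vpreb3, Igll1 and Cd79b), Ly6d and Car2. Igj, the joining chain of secreted antibodies, was at 248 FPKM in BBC, 0 in ZNF and 0.886 in BCRF8C. Cd74, the invariant chain of MHC class II, was at 196 FPKM in BBC, 0 in ZNF and 49.0 in BCRF8C. Wdfy4, which takes part in antigen cross-presentation, was at 183 FPKM in BBC, 0 in ZNF and 5.63 in BCRF8C. The interferon-induced Ifi27l2a was at 233 FPKM in BBC, 7.01 in ZNF and 0 in BCRF8C. The entry Uck2, at 661 FPKM in BBC, 15735 in ZNF and 0 in BCRF8C, covers only a short stretch (chromosome 1, 169153958 to 169154050), so it may not stand for the whole gene.

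The BGJ398 libraries gave other cultures of the same lines, treated and at doses that may differ, so they are no replicates. In them BBC was at least 4-fold above both others in 72 of 13358 entries (0.539%) and below both in 70 (0.524%). The general level differed there, since the median of BBC minus ZNF over entries with at least 5 FPKM in all DMSO libraries was -0.79 with BGJ398 and -0.01 in DMSO. Of the 260 entries high in DMSO, 185 were above both others with BGJ398 and 50 by at least 2. In all, 15% of entries used were above both with BGJ398. Of the 61 low entries, 55 were below both and 12 by at least 2, beside 48.3% of entries used that were below both. Part of the smaller gap follows from which entries were used. Apart from 1 entry in ZNF and 2 in BCRF8C, an entry used had at least 0.914 FPKM in 1 of the 2 ZNF libraries and 0.902 FPKM in 1 of the 2 BCRF8C libraries. Where a line was under that level in DMSO it therefore had to be higher with BGJ398. The same holds for BBC values under 1.02 FPKM.

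The pre-B receptor genes kept their order with BGJ398. Cd79a was at 132 FPKM in BBC, 1.12 in ZNF and 1.02 in BCRF8C, and Ighm at 612, 2.44 and 4.98 FPKM in that order. Igkc was at 3726 FPKM in BBC, 1.22 in ZNF and 3.85 in BCRF8C. For the transcription factors the gap was smaller. Pax5 was at 25.2 FPKM in BBC, 4.66 in ZNF and 1.603 in BCRF8C, a difference of 2.21. The differences to the higher line were 3.07 for Spib, 1.29 for Ebf1 and 0.83 for Bcl11a. Klf2 was below both others, at 2.06 FPKM in BBC, 2.85 in ZNF and 2.097 in BCRF8C. All 15 named high genes were above both lines and 11 by at least 2. All 15 named low genes were below both lines and 6 by at least 2. In the T lineage list, 0 members were below both lines by at least 2. Of its low members in DMSO, Sh2d1a, Cd247, Themis and Satb1 were under 1.02 FPKM in BBC and so had an entry through their BGJ398 value.

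**Figure D4:**
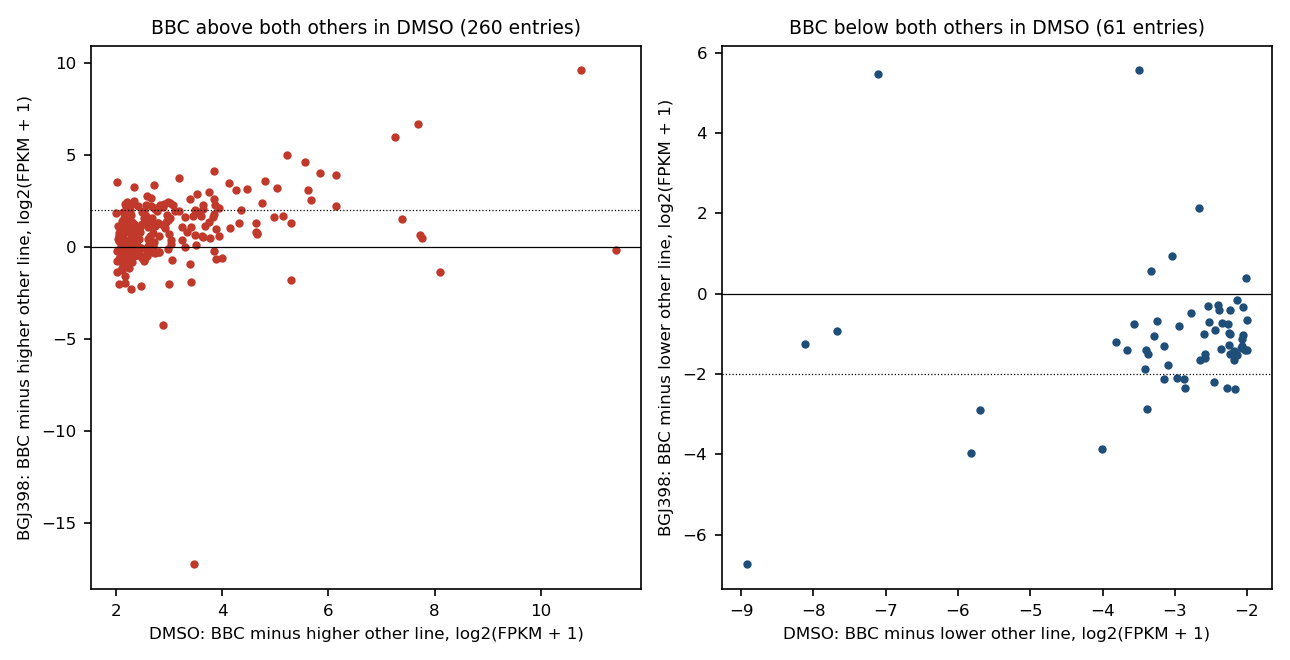
For the 260 entries high in BBC in DMSO (left) and the 61 low (right), the difference to the nearer other line in DMSO (horizontal axis) and with BGJ398 (vertical axis), both on the log2(FPKM + 1) scale. The solid line marks 0 and the dotted line a difference of 2 or -2; 185 of the 260 points at left lie above the solid line, and 55 of the 61 at right below it.

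The point far below the rest at left was Gm10800, a predicted gene at 62590 FPKM in BBC, 5651 in ZNF and 1013 in BCRF8C in DMSO, with a difference of 3.47 there and -17.22 with BGJ398. Entries of this kind, with very high or very low values in 1 library, were outside the naming rule.

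High entries were unevenly spread over the chromosomes, which was examined after the data were seen. On the X chromosome, 30 of 418 entries used were high in BBC (7.18%), against 1.97% on all others, and 11 of the 30 were protein coding. Over entries with at least 5 FPKM in all DMSO libraries, the median of BBC minus ZNF was 0.70 on the X (231 entries) and -0.01 over all 7197, and that of BBC minus BCRF8C was 0.50 and -0.14. Chromosome 18 had medians of 0.57 and 0.39. Chromosome 16 had 0.40 against BCRF8C but -0.08 against ZNF. Among the numbered chromosomes, 1 and 7 had the lowest medians against ZNF, -0.58 in each, with -0.23 and -0.30 against BCRF8C. The 18 mitochondrial entries had medians of -0.65 and -1.61.

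Xist, the noncoding RNA of the inactive X chromosome, was at 87.2 FPKM in BBC, 0 in ZNF and 0.0445 in BCRF8C, and with BGJ398 at 43.3, 0 and 1.23 FPKM. With BGJ398, 26 of the 30 X entries were above both lines and 2 by at least 2. The sex of the mice was not stated in the labels, and the number of copies of any chromosome was not measured. Whether these chromosome-wide shifts contributed to single differences, such as those of Xkrx and Mid1, was not tested. Without the X chromosome, 230 entries were high and 58 low in BBC.

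**Figure D5:**
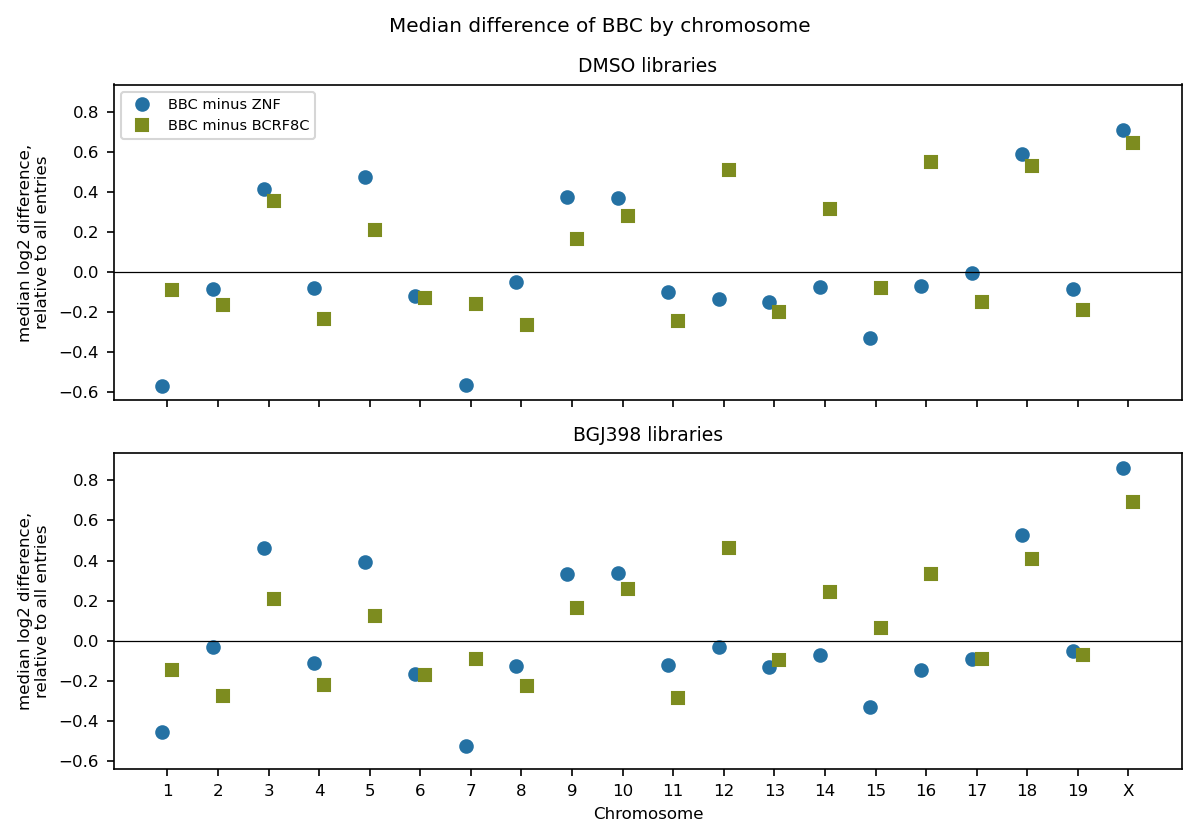
Median difference of BBC to ZNF (blue circles) and to BCRF8C (green squares) by chromosome, on the log2(FPKM + 1) scale and after subtraction of the median over all entries, for entries with at least 5 FPKM in all DMSO libraries, in DMSO (top) and BGJ398 (bottom), without the mitochondrial genome. The X chromosome has the highest circle and the highest square in both panels, and of those drawn chromosomes 1 and 7 have the lowest circles.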

How the data were processed

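The authors deposited 1 table of FPKM values with 17169 gene entries and 1 column for each of the 6 libraries, with no counts, so the depth is unknown and no counting error could be given. The submitters' processing notes name bcl2fastq, TopHat2 (version 2.0.12) and the build NCBIM37. How FPKM were estimated, on which annotation and with which filter is not given in the sources used here. Loci were written with starts raised by 1, because their length then matched GENCODE vM21 for 6377 of 15944 entries found there by identifier.

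From the deposited FPKM, log2(FPKM + 1) of BBC in DMSO was set against the higher or the lower of the other lines, and a difference of at least 2 was counted. Entries needed at least 1 FPKM in a DMSO library. With 1 library per line and agent, no test was made. The rule for named genes took the 15 entries with the largest difference on each side and at least 10 FPKM in a DMSO library, the 10 with the highest BBC level among those at 0 in both libraries of another line, and members of 25 gene lists. Predicted genes, receptor segments and small RNAs were left out of the first 2 groups. Members and lists were chosen with earlier results of these data known. The counting was tested on simulated data. Values of 2 list members are not reported here. Alternatives covered the pseudocount, the filter, the scaling, the threshold, each other line alone and the BGJ398 libraries. Promoter sequences came from RefSeq (GRCm38.p6), another build than that of the table, and only these windows were read in it. Python 3.11.15, numpy 2.4.6, pandas 2.3.3 and matplotlib 3.10.9 were used.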

Additional observations from a re-analysis of the deposited data

How the results depend on the processing

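With 1 library per line and agent, every count rests on 3 libraries, and with unknown depth the error of low values is unknown. The counts of entries high and low in BBC (260 and 61) were 655 and 105 with a pseudocount of 0.1 FPKM and 105 and 15 with one of 5 FPKM. They were 1015 and 264 at a difference of at least 1, and 79 and 22 at one of at least 3. Against BCRF8C alone, without ZNF, they were 766 and 371, and against ZNF alone, without BCRF8C, 604 and 307. With the entries at 0 in both libraries of a line kept, 624 were high and 73 low, and in the BGJ398 libraries 72 and 70. The filter and 1 entry per symbol left between 243 and 260 high and between 60 and 61 low. Quantile normalization gave 221 and 80 and median-of-ratios scaling 219 and 71. These scalings moved the median difference of all entries from 0.01 to -0.08 and -0.12. Entries high in BBC were 81% of those counted as deposited, 73.4% with quantile normalization, 75.5% with median-of-ratios scaling and 50.7% in the BGJ398 libraries. Chosen after seeing the data, protein-coding entries alone gave 176 and 51, omission of the X chromosome 230 and 58, and omission of entries at 0 or 0.001 in a DMSO library 211 and 54. The 15 named high genes changed sign under none of the alternatives run, and 4 fell under a difference of 2, all in the BGJ398 libraries. Of the 15 named low genes none changed sign, 8 fell short of -2 with a pseudocount of 5 FPKM and 9 in the BGJ398 libraries. With the entries at 0 kept, 7 of 7 pre-B receptor genes counted as high, against 624 of all 13675 entries (4.56%). For 5 of the 7 this followed from keeping zeros that may be missing estimates, so it is no test of them. No paired analysis was possible because the comparison has 1 library per group and no test.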
